A study of Mus musculus with 32 samples.

Results

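The conjugation enzymes of brown adipose tissue were taken by gene name. A probe belonged if its name in the array design starts with Gsta, Gstk, Gstm, Gsto, Gstp, Gstt or Gstz followed by a digit, or with Mgst, Ugt1, Ugt2, Ugt3 or Sult, and if it stands in the deposited table of log2 values. The array carried 56 such genes with 81 probes, and 38 of these genes with 50 probes were in the table, out of 24521 gene names and 37304 probes. By family, 20 of 20 cytosolic glutathione transferase genes, 3 of 3 microsomal ones, 6 of 14 UDP-glucuronosyltransferase genes and 9 of 19 sulfotransferase genes were measured. The filter on dim spots was passed by 30 of the 38 on at least 26 of the 32 arrays and by 8 only on at least 6 arrays of 1 group. Among these 8, Gstt4, Sult1c2, Sult6b1 and Ugt2b38 were not well above background on all arrays. Ugt3a1, which passed on at least 26 arrays, was not either. Each gene is described by its brightest probe, as a level in log2 of the quantile normalised median intensity, and levels of different genes are not set against each other.

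The arrays fall into 4 groups of 8 male C57BL6/J mice. All had been fasted for 24 hours and refed for 18 hours on chow with 20% glucose water. Total KO mice are null for Mlxipl, the gene of the glucose-responsive transcription factor ChREBP, in the whole body and so lack both of its isoforms, and total WT is their WT group. β KO mice carry a CRISPR/Cas9 deletion around exon 1b of Mlxipl, which only the β isoform uses, in the whole body, and β WT is their WT group. Age at sampling, and which of the edited lines was hybridised, are not given in the sources used here. The labels only number the replicates, while the methods of the study give n as animals, so p values are taken to measure the spread between animals.

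Drug-metabolising conjugation makes a lipophilic or reactive molecule more soluble. Glutathione transferases (Gst) join glutathione to electrophiles such as lipid aldehydes, and their microsomal relatives (Mgst) do so at membranes, where some also take part in leukotriene synthesis. UDP-glucuronosyltransferases (Ugt) of the endoplasmic reticulum transfer glucuronic acid from UDP-glucuronic acid, and sulfotransferases (Sult) transfer sulfate from PAPS to phenols, steroids and bile acids. The liver holds most of the body's capacity for glucuronidation and sulfation, so a trace of liver RNA in a fat sample can show in these genes.

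The targeted gene, Mlxipl, had a mean level of 16.15 ± 0.12 (SD, n = 8) in total WT, 13.67 ± 0.15 in total KO, 16.34 ± 0.14 in β WT and 14.84 ± 0.10 in β KO, a log2 fold change of -2.48 in total KO and -1.50 in β KO. Ucp1, the uncoupling protein that defines brown adipocytes, lay between mean levels of 18.43 and 18.53 in the 4 groups. Alb, the gene of albumin and the defining liver marker, ran from 5.02 to 15.36 over the arrays, above 12 on 9 and under 7 on 13. It ranged from 5.67 to 13.40 in total WT, from 5.25 to 10.79 in total KO, from 5.26 to 15.36 in β WT and from 5.02 to 14.89 in β KO. It was not called in any comparison (limma adjusted p = 0.368 for total KO, 0.999 for β KO and 0.318 between the WT groups). The mean of 13 liver markers ranged from 6.28 to 11.06, 6.16 to 8.87, 6.31 to 12.97 and 6.25 to 12.67 in the same order, with 1 of 13 called lower in total KO and 0 called in β KO. The mean level of 11 skeletal muscle markers lay between 13.05 and 16.37 in the total-line groups together and between 5.56 and 12.20 in the β-line groups, and 11 of 11 were called lower in β WT. In bulk tissue, fewer cells of a type and less RNA per cell cannot be told apart.

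Promoter sequence was found for 33 of the 38 genes in RefSeq (GRCm38.p6). Windows of 250 bases before the annotated start were searched on both strands for the E-box CACGTG, which forms part of the element that ChREBP binds, for TGACNNNGC, the core of the antioxidant response element, and for GCGTG, the core to which the aryl hydrocarbon receptor binds. A match to one motif can share letters with a match to another, and a match is a description of letters only. A gene counted if any of its windows matched, while the percentages beside the counts are of single windows. CACGTG was in the windows of 0 of the 33 genes, against 6.02% of 32851 promoter windows, and GCGTG in those of 6 genes, against 28.2%. TGACNNNGC was in the windows of 4 genes, against 10.2%. These are shown because Gstm7 and Gstm5 carry the same core and moved in opposite directions in total KO, while Gsta3 and Mgst1 were not called there. Capitals mark the core, which lies 129 to 121 bases before the start in Gstm7 (1 of 2 starts), 42 to 34 in Gstm5, 121 to 113 in Gsta3 and 56 to 48, on the other strand, in Mgst1 (1 of 2 starts). Which start of Gstm7 or Mgst1 is used in this tissue was not tested, so a window may lie within the transcript. The windows are chr3:107931615-107931864 (minus strand), chr3:107895604-107895853 (plus), chr1:21240335-21240584 (plus) and chr6:138140277-138140526 (plus).
Gstm7: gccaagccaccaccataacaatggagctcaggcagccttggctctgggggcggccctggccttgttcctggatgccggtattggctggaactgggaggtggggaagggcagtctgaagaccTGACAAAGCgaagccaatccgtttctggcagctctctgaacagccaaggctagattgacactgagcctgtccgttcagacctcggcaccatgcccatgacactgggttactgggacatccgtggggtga
Gstm5: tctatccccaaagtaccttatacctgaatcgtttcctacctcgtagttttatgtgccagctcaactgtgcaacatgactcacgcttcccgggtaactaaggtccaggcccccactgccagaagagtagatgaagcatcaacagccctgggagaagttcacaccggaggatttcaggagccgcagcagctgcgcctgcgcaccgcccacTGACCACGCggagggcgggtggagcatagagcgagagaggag
Gsta3: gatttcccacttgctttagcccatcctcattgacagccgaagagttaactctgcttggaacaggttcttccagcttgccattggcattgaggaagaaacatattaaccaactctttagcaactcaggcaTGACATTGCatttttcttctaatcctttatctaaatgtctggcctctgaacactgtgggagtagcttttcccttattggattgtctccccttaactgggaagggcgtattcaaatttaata
Mgst1: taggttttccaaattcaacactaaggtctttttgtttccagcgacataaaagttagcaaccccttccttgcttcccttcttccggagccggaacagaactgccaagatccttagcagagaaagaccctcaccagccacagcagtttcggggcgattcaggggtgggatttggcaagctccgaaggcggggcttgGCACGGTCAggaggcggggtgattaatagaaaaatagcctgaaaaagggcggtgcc

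A second set shows pairs of neighbouring genes whose promoters share a long run of bases. Gstp1 and Gstp2 share a run of 43 bases and were both called lower in total KO. Ugt2b37 and Ugt2b38 share a run of 82 bases, and both had a called positive slope on the liver marker Alb. In total KO, however, Ugt2b37 rose by 1.42 while Ugt2b38 was not called (-0.42, limma adjusted p = 0.744). Whether shared promoter sequence goes with shared changes was not tested. Capitals mark the shared run. The windows are chr19:4037913-4038162 and chr19:4042222-4042471 for the Gstp genes and chr5:87254789-87255038 and chr5:87424204-87424453 for the Ugt2b genes, all on the minus strand. Between genes of the Gstm cluster, by comparison, the longest shared run was 13 bases (Gstm3 and Gstm6), and within the Gstt cluster it was 9 bases (Gstt1 and Gstt4).
Gstp1: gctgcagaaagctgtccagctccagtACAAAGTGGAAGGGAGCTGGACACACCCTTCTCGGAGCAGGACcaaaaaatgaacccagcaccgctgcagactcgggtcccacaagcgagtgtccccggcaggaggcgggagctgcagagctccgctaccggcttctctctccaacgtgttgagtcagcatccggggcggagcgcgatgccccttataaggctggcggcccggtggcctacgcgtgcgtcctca
Gstp2: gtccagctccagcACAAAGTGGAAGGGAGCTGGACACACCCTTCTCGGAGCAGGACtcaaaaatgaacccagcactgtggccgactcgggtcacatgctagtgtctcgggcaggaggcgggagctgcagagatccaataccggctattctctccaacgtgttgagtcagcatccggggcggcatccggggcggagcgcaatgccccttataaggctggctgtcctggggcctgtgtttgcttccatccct
Ugt2b37: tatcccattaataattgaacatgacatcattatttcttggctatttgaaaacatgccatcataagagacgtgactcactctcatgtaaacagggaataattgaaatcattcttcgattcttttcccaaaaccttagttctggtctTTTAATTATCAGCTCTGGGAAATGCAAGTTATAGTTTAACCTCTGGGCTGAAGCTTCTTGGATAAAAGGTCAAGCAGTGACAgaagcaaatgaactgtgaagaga
Ugt2b38: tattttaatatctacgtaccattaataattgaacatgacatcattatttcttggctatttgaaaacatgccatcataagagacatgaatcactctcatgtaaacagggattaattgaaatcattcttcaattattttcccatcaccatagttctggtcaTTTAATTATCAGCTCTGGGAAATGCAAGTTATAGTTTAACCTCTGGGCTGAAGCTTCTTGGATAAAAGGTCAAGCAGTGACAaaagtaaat

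In total KO, conjugation enzymes changed in both directions, with more genes higher than lower. Of the 38 genes, 16 (42.1%) rose and 7 (18.4%) fell at a limma adjusted p under 0.05. Over all 24523 gene names tested, 22.9% were called higher and 21.1% lower, so the share that fell was close to the background. The median log2 fold change of the 38 genes was 0.16, beside 0.01 over all genes. The cytosolic glutathione transferases held most of the rises, with 12 of 20 higher and 3 lower. Of the 3 Mgst genes, 1 fell. Of the 6 Ugt genes, 2 rose and 1 fell, and of the 9 Sult genes, 2 rose and 2 fell.

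**Figure D1:**
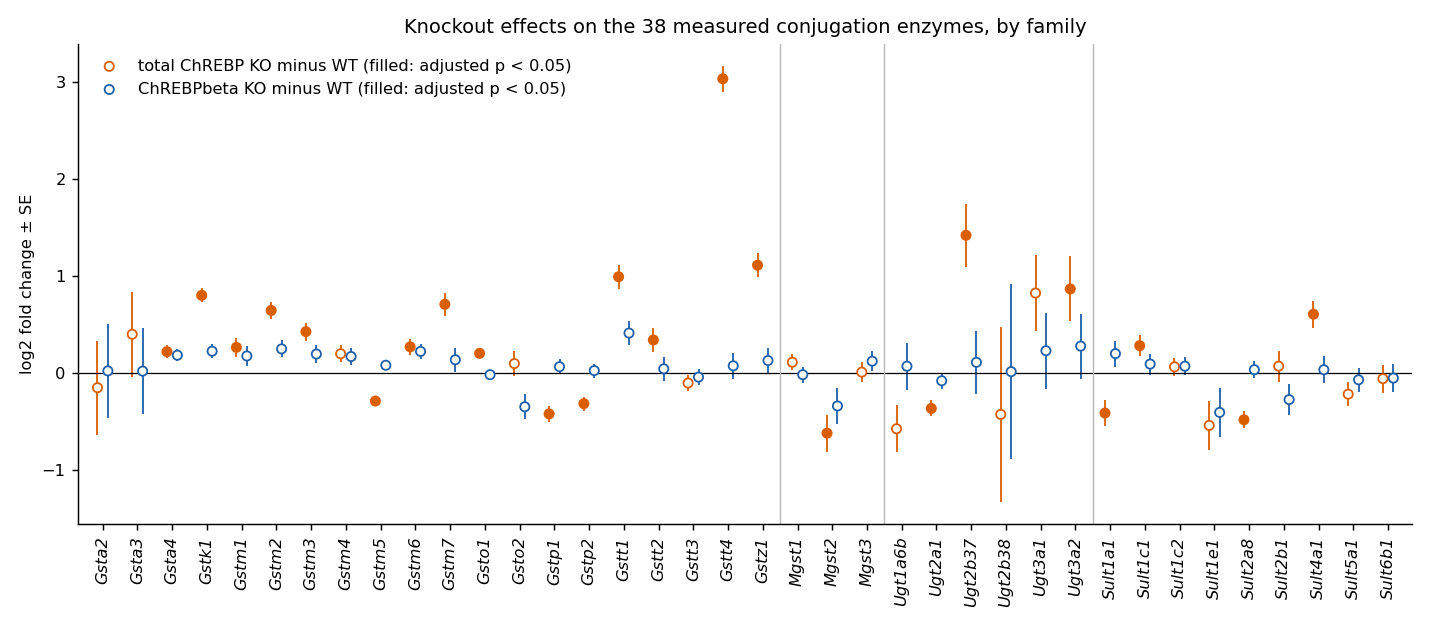
Log2 fold change (y axis, ± SE) of each of the 38 measured genes (x axis, ordered by family and split by grey lines) in total KO (orange) and in β KO (blue), each against its own WT group of 8 arrays, with filled points for an adjusted p under 0.05. In total KO 23 points are filled, the highest being Gstt4 at 3.03, and in β KO 0 are.

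Theta-class genes on chromosome 10 were among those that rose. Gstt4 (probe at chr10:75277786-75277845, mm9, as are all probe positions here) had levels of 4.46, 4.70 and 4.96 (lowest, median, highest) in total WT and 6.81, 7.87 and 8.19 in total KO. Every total KO array lay above every other array of the series. The log2 fold change was 3.03 ± 0.13 (SE, adjusted p = 2.39e-18), with 2.73 to 3.31 within the 4 wash batches. Its probe was well above background on 5 of 8 arrays in total WT, 8 in total KO, 6 in β WT and 5 in β KO, and it passed the filter by the criterion for 1 group, met in total KO, where it was high. The size of its rise varied with the background correction, and was 1.94 after normexp correction and 4.56 with Agilent's processed signal.

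Gstt1 (chr10:75246560-75246619), which conjugates small halogenated compounds, ran from 10.56 over 10.69 to 11.22 in total WT and from 11.28 over 11.83 to 11.96 in total KO. The groups did not overlap, and the log2 fold change was 0.99 ± 0.12 (adjusted p = 6.35e-08). Gstt2 rose by 0.34 ± 0.13 (adjusted p = 0.0282), and lost that call with slide as a fixed block (adjusted p = 0.0609), with the mean of its probes and when any of 5 arrays was left out. Gstt3, the remaining gene of the cluster, had a fold change of -0.10 (adjusted p = 0.341). Thus 3 of the 4 theta genes rose.

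Gstz1 encodes maleylacetoacetate isomerase, an enzyme of tyrosine breakdown. Its level (chr12:88505612-88505671) was 13.87 at the lowest, 14.13 at the median and 14.59 at the highest in total WT, and 14.88, 15.30 and 15.47 in total KO. The groups were separate, with a log2 fold change of 1.11 ± 0.12 (adjusted p = 7.96e-09). Its other measured probe gave 1.27. Gstk1 (chr6:42200381-42200440), the kappa-class enzyme of mitochondria and peroxisomes, was at 12.42, 12.72 and 13.03 in total WT and at 13.45, 13.52 and 13.65 in total KO. These groups were separate too, and the log2 fold change was 0.80 ± 0.07 (adjusted p = 8.77e-11).

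The mu-class genes lie in 1 cluster on chromosome 3 and did not move as a block. Of 7, 5 rose and 1 fell. Gstm7 rose by 0.71 ± 0.12, Gstm2 by 0.65 ± 0.09 and Gstm3 by 0.43 ± 0.09, and the groups did not overlap for Gstm7 and Gstm2. Gstm1 and Gstm6 each rose by 0.27, and Gstm4 had 0.20 (adjusted p = 0.0687). The other probe of Gstm6 was not called (0.26, limma adjusted p = 0.174). Gstm1 lost its call with the processed signal (adjusted p = 0.131), with slide as a fixed block, with 75th percentile scaling and without any of 8 arrays. Its brightest probe is placed on chromosome 5 in the array design, while its other probe, on chromosome 3, gave 0.28. Gstm5 (chr3:107701511-107701570) ran from 12.61 over 12.72 to 13.08 in total WT and from 12.39 over 12.49 to 12.56 in total KO. It fell by 0.29 ± 0.05 on the log2 scale (adjusted p = 2.52e-05), without overlap, and its other probe also fell, by 0.30.

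Of the pi-class pair, whose promoters are printed above, Gstp2 (chr19:4040283-4040342) had levels of 15.49, 15.55 and 15.88 in total WT and 14.97, 15.28 and 15.71 in total KO. Of 8 KO arrays, 7 lay below the WT mean, and the fall was 0.31 ± 0.07 (adjusted p = 0.000632). Gstp1 (chr19:4037306-4037365) went from 12.05, 12.16 and 12.56 to 11.68, 11.76 and 12.20, and fell by 0.42 ± 0.08 (adjusted p = 5.86e-05). These genes are near-identical copies, so a probe for one may also bind transcripts of the other. Among the remaining cytosolic enzymes, Gsta4, which conjugates the lipid aldehyde 4-hydroxynonenal, rose by 0.22 ± 0.06 (adjusted p = 0.0053, but 0.146 when slide was a fixed block), and Gsto1, an omega-class enzyme with dehydroascorbate reductase activity, by 0.20 ± 0.05. The call of Gsto1 was lost with 75th percentile scaling (0.09, adjusted p = 0.254) and with the processed signal (0.08, adjusted p = 0.358). The other probe of Gsto1 was not called (0.15, limma adjusted p = 0.0749). Gsta2, Gsta3, Gstm4, Gsto2 and Gstt3 were not called.

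**Figure D2:**
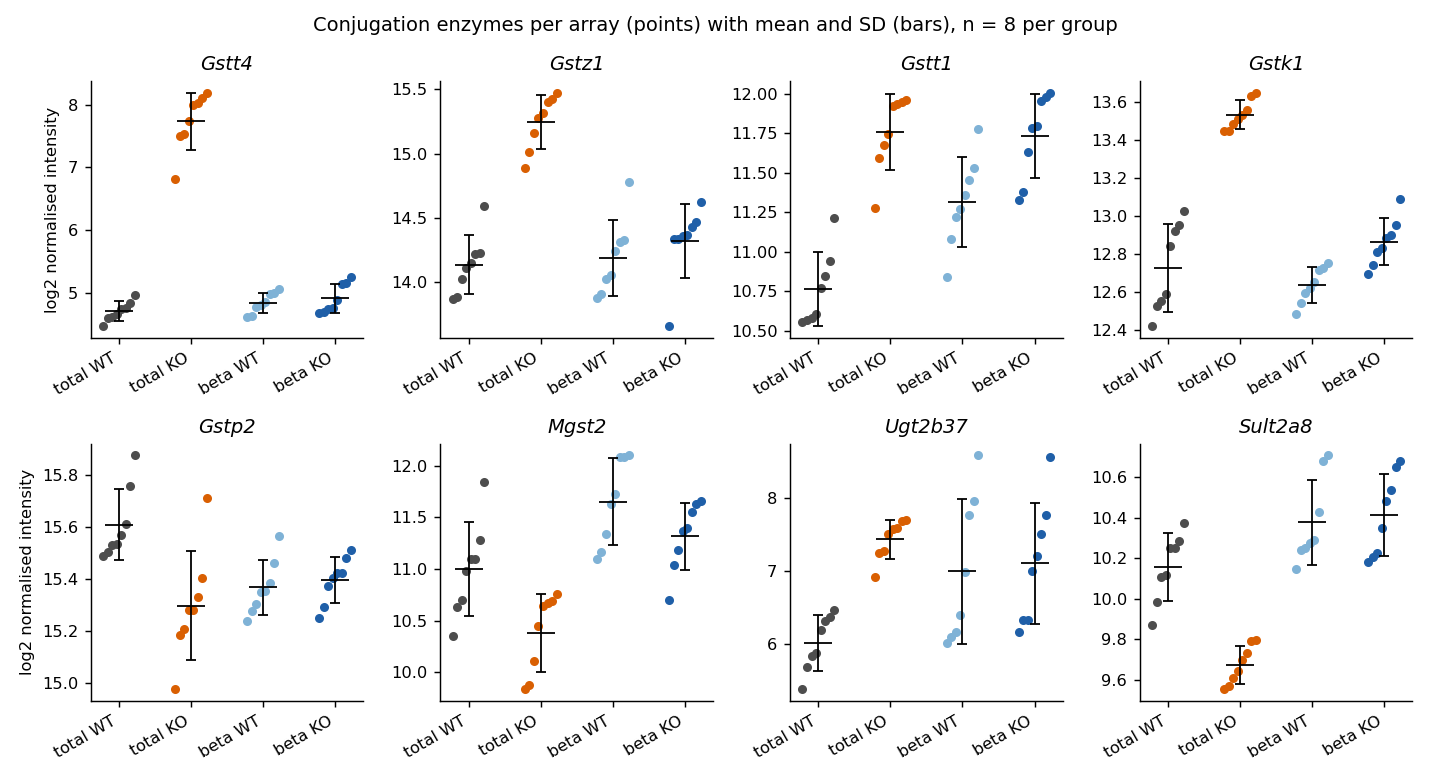
Level (y axis, log2 normalised intensity) of 8 genes in each array, as points sorted by value within a group (x axis: the 4 groups, 8 arrays each), with bars for the mean and SD. Gstt4, Gstz1 and Gstk1 in total KO lie above all arrays of the other 3 groups, Sult2a8 lies below them, and Gstp2 and Mgst2 overlap.

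Mgst1 and Mgst3 had log2 fold changes of 0.11 (adjusted p = 0.284) and 0.01 (adjusted p = 0.941). Mgst2 (chr3:51486449-51486508), a membrane enzyme that can make leukotriene C4, was at 10.35, 11.03 and 11.85 in total WT and 9.84, 10.54 and 10.76 in total KO. It fell by 0.62 ± 0.19 (adjusted p = 0.00842) with overlapping groups, and its log2 fold change lay between -1.22 and -0.24 within wash batches. The call was lost with slide as a fixed block (adjusted p = 0.0646), and the value was -0.16 without the arrays whose Alb level was above 9.

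Ugt2b37 (chr5:87669707-87669766) was low in total WT, at 5.38, 6.03 and 6.47, and higher in total KO, at 6.92, 7.54 and 7.69. These groups were separate, and it rose by 1.42 ± 0.32 (adjusted p = 0.000588, and 0.0507 with slide as a fixed block). Ugt3a2 (chr15:9300203-9300262), which uses other UDP-sugars than UDP-glucuronic acid, went from 5.62, 5.98 and 6.64 to 6.73, 6.85 and 7.08 and rose by 0.87 ± 0.33 (adjusted p = 0.0348). That call was lost after normexp correction (adjusted p = 0.0626), without any of 4 arrays, or with slide as a fixed block (adjusted p = 0.446). The mean Alb level was 8.71 in total WT and 6.83 in total KO. The log2 fold changes of Ugt2b37 and Ugt3a2 were 1.70 and 1.16 with Alb as a covariate, and 1.45 and 0.96 without the 9 arrays whose Alb level was above 12. Ugt3a1 had 0.83 (limma adjusted p = 0.0887). It was called with Alb, or the liver and muscle list means, as covariates and without the arrays above an Alb level of 12 or 9. The processed signal and a fit of the total line alone also gave a call. Ugt2a1, first known from the olfactory epithelium, fell by 0.36 ± 0.08 (adjusted p = 0.000517, and 0.071 with slide as a fixed block), from 6.61, 6.89 and 7.30 to 6.34, 6.55 and 6.80. Ugt1a6b had a log2 fold change of -0.57 (adjusted p = 0.0573), and another of its probes had -0.63 (adjusted p = 0.024). A probe for this gene may lie in the exons that all Ugt1a transcripts share, so which Ugt1a transcript was measured cannot be said.

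Among the sulfotransferases, Sult2a8 (chr7:14996296-14996355), a bile acid sulfotransferase, ran from 9.87 over 10.18 to 10.37 in total WT and from 9.56 over 9.67 to 9.79 in total KO. The KO arrays lay below all others, and it fell by 0.48 ± 0.09 (adjusted p = 2.71e-05). Sult1a1, which sulfates phenols, fell by 0.41 ± 0.13 (adjusted p = 0.0138), from 11.52, 11.87 and 12.53 to a median of 11.57 and a highest level of 11.79, with overlap. Sult4a1, a brain-type member without a settled substrate, rose by 0.61 ± 0.14 (adjusted p = 0.000692), from 5.46, 5.76 and 6.11 to 5.99, 6.27 and 7.28. Sult1c1 rose by 0.28 ± 0.11 (adjusted p = 0.033), from 7.10, 7.23 and 7.33 to 7.01, 7.49 and 7.83. It lost the call with Alb as a covariate (adjusted p = 0.0519), without the arrays whose Alb level was above 9 and without any of 6 single arrays. The call of Sult1a1 was lost with slide as a fixed block (adjusted p = 0.0845), and its value was -0.20 without the arrays whose Alb level was above 9.

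Some cell type markers also differed in total KO, where 22.9% of all genes were called higher and 21.1% lower. Of 6 macrophage markers, 5 were called lower, and the mean level of the list ranged from 9.92 to 10.53 in total WT and from 9.42 to 9.69 in total KO. Of 8 brown adipocyte markers, 4 were called higher and 2 lower, with list means of 15.06 to 15.36 and 15.15 to 15.48. Of 5 white adipocyte markers 2 were called higher, of 5 lymphocyte markers 1, and of 3 blood markers 0. In β KO 0 markers of these 5 lists were called. The part of these in the changes of the conjugation enzymes was not tested.

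In β KO, 0 of the 38 genes were called by limma in either direction, while 1.37% of all genes were called higher and 1.33% lower. At an unadjusted p under 0.05 there were 7 genes, and 0 were called when any probe of a gene was allowed to count. The median log2 fold change was 0.07, beside -0.00 over all genes, and 28 of the 38 were above 0. The shares of all genes under that unadjusted p and above 0 were not computed, so neither count is set against a background. Gstt1 had the lowest adjusted p (0.066), with a log2 fold change of 0.41 ± 0.12. Its levels were 10.84, 11.31 and 11.77 in β WT and 11.33, 11.79 and 12.01 in β KO, and the groups overlapped. It was called with array weights and with Alb as a covariate (adjusted p = 0.0311). Gstk1 had 0.23 ± 0.07 (adjusted p = 0.093), Gstm2 0.25 ± 0.09 (adjusted p = 0.128) and Gsta4 0.19 ± 0.06 (adjusted p = 0.129). Gsto2 had -0.35 ± 0.13 (adjusted p = 0.161). All 7 mu-class genes lay above 0, between 0.08 and 0.25, with adjusted p values of 0.128 or more. Gstz1 had 0.13 ± 0.12 and Gstt4 0.08 ± 0.13. Gstt4 was dim in both β-line groups, so its value does not show that it was unchanged. The effects of the isoform-specific deletion on Ugt and Sult genes lay between -0.40 and 0.28, with 0.489 as the lowest adjusted p. Ugt3a2, at 0.28 here, was called without the arrays whose Alb level was above 12 (limma adjusted p = 0.0142).

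The KO effects were compared directly, as the β KO effect minus the total KO effect. In this test 14 genes were called. Of the 38, 5 (13.2%) were higher and 9 (23.7%) lower, beside 12.2% and 13% of all genes. Among those that had risen in total KO, the difference was -2.96 ± 0.19 for Gstt4 (adjusted p = 1.4e-13), -0.98 ± 0.18 for Gstz1, -0.58 ± 0.17 for Gstt1 and -0.58 ± 0.10 for Gstk1. Gstt4 had passed the filter only through total KO and was dim in the other groups. Its difference ranged from -4.35 to -1.90 over the alternatives, so its size is not settled. Ugt2b37 had -1.31 ± 0.46 (adjusted p = 0.0354), and Gstm7, Sult4a1, Gstm2 and Gsto1 lay between -0.57 and -0.22. With slide as a fixed block 10 of the 14 were called, and Ugt2b37, Gstm7, Sult4a1 and Gstm2 had adjusted p values from 0.109 to 0.209. The call of Ugt2b37 was also lost without any of 9 arrays. Among those that had fallen, Sult1a1 had 0.61 ± 0.19, Sult2a8 0.52 ± 0.12, Gstp1 0.49 ± 0.11, Gstm5 0.37 ± 0.07 and Gstp2 0.34 ± 0.10. Without the arrays whose Alb level was above 12, 10 genes were called, and Sult1a1, Gstp2, Gstm2, Gsto1 and Sult4a1 lost their calls. Without those above 9, 11 were called, and Gstp1 and Sult2a8 also lost theirs. These fits had 4 and 3 arrays in each β-line group. For the other 9 genes called in total KO a difference from the β KO effect was not detected, the nearest being Ugt2a1 at 0.28 ± 0.12 (adjusted p = 0.072).

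The WT groups of the lines differed in 18 of the 38 genes, 12 (31.6%) higher and 6 (15.8%) lower in the ChREBPβ line, beside 24.8% and 14.1% of all genes. Sult1e1 (chr5:88005187-88005246), the estrogen sulfotransferase, ran from 6.93 over 7.98 to 8.58 in total WT and from 5.65 over 6.29 to 6.92 in β WT, a log2 difference of -1.62 ± 0.25 (adjusted p = 5.46e-06). It was not called in either KO comparison. Gsto2 (chr19:47960702-47960761) ran from 8.63 over 8.86 to 9.03 in the total line and from 9.24 over 9.79 to 10.08 in the ChREBPβ line, a difference of 0.88 ± 0.13 (adjusted p = 1.59e-06). Both pairs of groups were separate. Sult1c1 was higher in the ChREBPβ line by 0.68 ± 0.11, Mgst2 by 0.65 ± 0.19 and Sult6b1 by 0.54 ± 0.14, the last well above background on 7 arrays of total WT, 3 of total KO, 7 of β WT and 8 of β KO.

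For Gstp1 and Gstt1 the median of total WT stood at one end of the 4 groups. The same held for Gsta4, Gstm2, Gstp2, Gstt2, Sult1c1 and Ugt2b37, which were also called both here and in total KO. It did not hold for Gstm7, Gsto1, Mgst2 and Sult2a8, also called in both. Gstp1 was lower in β WT (11.56, 11.68 and 11.84), with a difference of -0.53 ± 0.08, so that β WT lay near total KO. Gstt1 was higher in β WT by 0.55 ± 0.12. Gstm7, for which total WT lay between the other groups, was lower in β WT, with -0.41 ± 0.12. This comparison shares the total WT arrays with the total KO comparison. All 11 muscle markers were lower in β WT, with log2 differences from -7.15 to -5.82, 2 of 13 liver markers were called higher, and 5 of 6 macrophage markers were called lower and 1 higher. Line, muscle RNA and any difference in background or housing cannot be told apart here. The probe of Ugt3a1 was not well above background on all arrays. Its level ran from 4.75 over 4.99 to 5.74 in total WT and from 5.02 over 5.72 to 8.17 in β WT. Ugt2b37 reached 8.58 in β WT, and for both genes only part of the β WT arrays lay above total WT. With the liver and muscle list means as covariates, 9 genes were called in place of 18. Ugt3a1 (1.14 ± 0.39, adjusted p = 0.02) and Ugt2b37 (0.98 ± 0.32, adjusted p = 0.0161) then had 0.13 and 0.15, and without the 9 arrays whose Alb level was above 12 they had 0.16 and 0.18. Sult1e1 and Gsto2 kept -1.72 and 0.88 with these covariates.

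**Figure D3:**
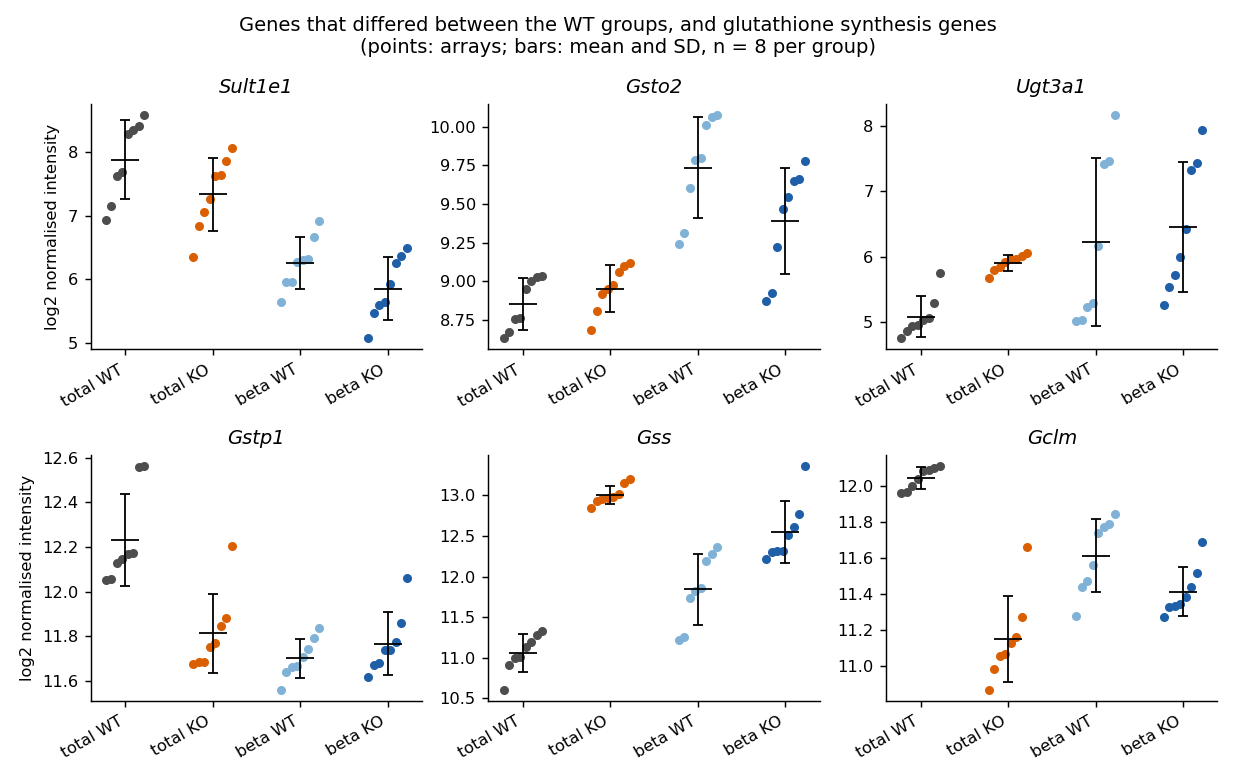
Level (y axis, log2 normalised intensity) in each array of 4 conjugation genes called between the WT groups (Sult1e1, Gsto2, Ugt3a1, Gstp1) and of the glutathione synthesis genes Gss and Gclm, with arrays as points sorted by value within each of the 4 groups (x axis) and bars for the mean and SD of 8 arrays. Sult1e1 is lower and Gsto2 higher in β WT than in total WT, and the mean of Gss is higher in each KO group than in its own WT group, with overlap in the β line.

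The level of Alb was then used to ask which of these genes went with liver RNA. Within the 4 group means, limma called a slope on Alb for 9 of the 38 genes, against 1.96% of all genes, 8 positive and 1 negative. The steepest belonged to Ugt2b38, at 0.53 ± 0.03 log2 units per log2 unit of Alb (adjusted p = 2.9e-13). Its level ran from 4.41 to 10.69 in β WT and from 3.94 to 7.45 in total WT, and its slope was positive within each group, from 0.30 to 0.62. Gsta2 and Gsta3, alpha-class enzymes that are abundant in liver, had slopes of 0.21 ± 0.04 and 0.20 ± 0.03. Ugt3a1 had 0.19 ± 0.03, Ugt3a2 0.16 ± 0.02, Ugt2b37 0.15 ± 0.02, Ugt1a6b 0.11 ± 0.02 and Sult2a8 0.03 ± 0.01. Sult6b1 had -0.05 ± 0.01 (adjusted p = 0.0472). Genes such as Ugt2b38, Gsta2 and Sult6b1 passed the filter only through arrays of 1 group. Ugt2b38, Sult6b1 and Ugt3a1 were not well above background on all arrays. The filter may thus have favoured some slopes that count among the 9.

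Within total KO alone, where Alb reached only 10.79, the slopes of Gsta3, Ugt1a6b, Ugt3a2, Ugt3a1 and Ugt2b37 lay between -0.12 and -0.01. Gsta3 (chr1:21255189-21255248) ran from 10.34 over 11.20 to 12.54 in that group, although its arrays had little Alb. Its log2 fold change was 0.40 (adjusted p = 0.495), and 0.79 with Alb as a covariate (adjusted p = 0.0348). Of the 23 genes called in total KO, 3 (Ugt2b37, Ugt3a2 and Sult2a8) had a called slope on Alb. Of the other genes described in full above, Gstt4 had a slope of 0.00 ± 0.01, Gstz1 0.02 ± 0.01, Gstk1 0.01 ± 0.01 and Gstt1 0.04 ± 0.01 (adjusted p = 0.112). Without the 9 arrays above an Alb level of 12, their log2 fold changes in total KO were 3.03, 1.18, 0.82 and 0.97. Gstt4 was dim outside total KO, so little slope could show there, and its values here are of limited weight. A slope on the mean of the muscle markers was called for 0 of the 38 genes by limma, against 0.669% of all genes.

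**Figure D4:**
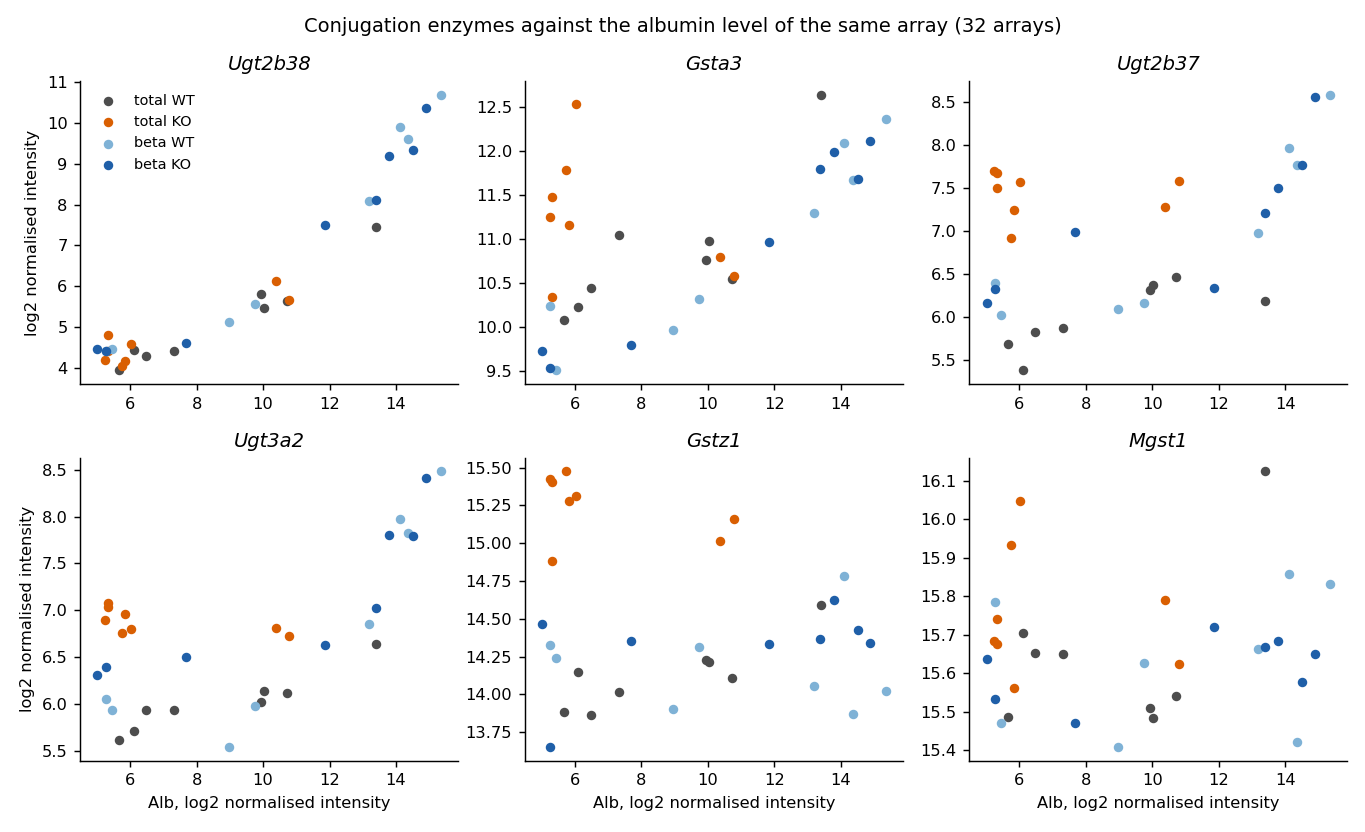
Level (y axis, log2 normalised intensity) of 6 genes against the Alb level of the same array (x axis, log2 normalised intensity), 1 point per array in the colour of its group. Ugt2b38 climbs with Alb in every group, Gsta3, Ugt2b37 and Ugt3a2 do so in the β-line groups while the total KO arrays stay high at low Alb, and Gstz1 and Mgst1 had no called slope.

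The filter removed 18 genes. Of them, 8 met the detection criteria on 0 arrays (Sult2a1 to Sult2a5, Sult2a7, Sult3a1 and Ugt2b35), and 8 met them on more than 5. Ugt2b5 met them on 15 arrays and Ugt2b34 on 14, which included 9 of the 9 arrays with an Alb level above 12. Ugt2b1 met them on 9 arrays, 8 of them among those 9, and the lowest Alb level among these arrays was 11.85. Ugt1a6a met them on 6 arrays, with 13.19 as the lowest Alb level among them. Sult1d1 and Sult1b1 met them on 9 and 8 arrays, at Alb levels from 5.32 up. Of these arrays, 7 and 5 had an Alb level above 12. Without the filter, all 56 genes were measured and 23 were called in total KO and 0 in β KO.

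The genes that supply and clear the conjugates were read from lists. Over all 24523 gene names, 22.9% were called higher and 21.1% lower in total KO, and 1.37% and 1.33% in β KO. The counts of these short lists were not tested against those shares. In the glutathione list 3 of 11 genes rose and 2 fell in total KO, and 1 rose in β KO. That gene was Gss, glutathione synthetase, with levels of 10.60, 11.07 and 11.33 in total WT and 12.85, 12.97 and 13.20 in total KO, a log2 fold change of 1.95 ± 0.15 (adjusted p = 2.69e-12). In the ChREBPβ line it was at 11.22, 11.84 and 12.37 in WT and at 12.22, 12.41 and 13.36 in KO, which overlapped slightly, with 0.71 ± 0.15 (adjusted p = 0.00627). The latter call was lost with slide as a fixed block (adjusted p = 0.0776), in a fit of the β line alone and without the arrays above an Alb level of 9. Gclm, the modifier subunit of glutamate-cysteine ligase, fell by 0.90 ± 0.09 in total KO (adjusted p = 3e-10) and had -0.20 in β KO (adjusted p = 0.262).

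In the UDP-glucuronic acid list 1 of 6 rose (Slc35d1, a nucleotide sugar transporter, by 0.37 ± 0.11) and 2 fell, the larger fall being that of Ugp2, UDP-glucose pyrophosphorylase, which fell by 0.69 ± 0.07. In the PAPS list 2 of 7 rose and 3 fell, led by Papss2, a PAPS synthase, up by 1.05 ± 0.09 (adjusted p = 4.54e-11), and Impad1, a Golgi phosphatase of the PAPS by-product, which fell by 0.42 ± 0.05. Of 7 conjugate exporters, Abcc1 rose by 0.66 ± 0.17 and Abcc5 fell by 0.43 ± 0.08. Of 6 genes of the axis of Nrf2, the factor that binds the antioxidant response element, 2 rose in total KO, led by Hmox1, heme oxygenase, at 1.23 ± 0.20 (adjusted p = 7.18e-06). Nqo1, also a known Nrf2 target, had 0.05 (adjusted p = 0.805). In β KO 0 genes of these other 4 lists were called by limma.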

How the data were processed

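RNA of 32 brown adipose tissue samples, 8 in each of 4 groups, was hybridised to Agilent 1-colour arrays and read with Agilent Feature Extraction 10.10.1.1, per the labels. Per spot, the deposited scanner output gives a median intensity that the authors had not yet normalized. A matrix of log2 values from the authors, which had been filtered, quantile normalized and summarised to 1 value (the median) per probe, fixed the membership and served as an alternative. The main values were rebuilt from the intensities in the same way. Control spots were removed, and other spots stayed when their spot was found, above 0 and well above background, on no fewer than 26 arrays in all or at least 6 arrays within 1 group. This left 37306 probes and 24523 gene names, with a mean absolute difference of 0.00298 from the log2 values of the authors. Arrays have no read depth, and the number of arrays limits the precision.

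Every kept probe was fitted with limma 3.58.1 in R 4.3.3, with 4 group means over all 32 arrays, and two-sided p values were Benjamini-Hochberg adjusted over all probes. Each gene is given by its brightest probe, and the threshold for a call was 0.05. Slopes on Alb and on the muscle mean were fitted beside the 4 group means, and were added after the values had been seen, as was leaving out arrays with much Alb. The script was tested on simulated data. Alternatives covered background correction, scaling, filters, blocks, weights, covariates, thresholds, probe choice and leaving out each array. Values are given in full, per family, for up to 4 of the highest and 4 of the lowest called genes in total KO, for all called in β KO and for up to 2 of the highest and 2 of the lowest called between the WT groups. Supply genes are given by counts and for the highest and lowest called. The genes and lists were chosen with earlier results of these data known. List genes that were not measured include Tcf21, Cd79a, Hbb-bs, Slc7a11, Ggt1 and Abcc2.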

Additional observations from a re-analysis of the deposited data

Results flagged for a closer look

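Among the 152 sets of 8 arrays (a gene in a group), 10 had 1 array set apart from the rest, where chance gives about 1 in 20. The value given is the gap to the next array as a share of the group's range. In total WT it was 0.563 for Gsta2 (replicate 4), 0.621 for Gsta3, 0.579 for Gstm1 and 0.654 for Mgst1, the last 3 all on replicate 2, whose Alb level was 13.40. In total KO it was 0.553 for Gstm1, 0.576 for Gstm3, 0.557 for Gstm4 and 0.611 for Gstp1, all 4 on the high side of replicate 7, whose Alb level was 6.02. In β KO, Gstm2 was low on replicate 3 (0.549) and Gstz1 on replicate 4 (0.703). Without total KO replicate 7 the call of Gstm1 was lost.

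The effect of the KO differed between the lines, by the test of the difference itself (β KO effect minus total KO effect, log2), for 14 genes. It was below 0 for Gstt4 (-2.96, of unsettled size as its probe was dim outside total KO), Ugt2b37 (-1.31), Gstz1 (-0.98), Gstt1 (-0.58), Gstk1 (-0.58), Sult4a1 (-0.57), Gstm7 (-0.57), Gstm2 (-0.40) and Gsto1 (-0.22). It was above 0 for Sult1a1 (0.61), Sult2a8 (0.52), Gstp1 (0.49), Gstm5 (0.37) and Gstp2 (0.34). Several of these calls were lost without the arrays with much Alb, as given above.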

How the results depend on the processing

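Of 38 conjugation genes, 23 were called in total KO, 0 in β KO, 14 for the difference between the KO effects and 18 between the WT groups. The 15 slides held 2 to 3 arrays each, so slide as a fixed block also costs precision. With this block 15 were called in total KO. With slide as a random block, where arrays of a slide had a correlation of 0.109, 24 were called in total KO and 19 between the WT groups. Requiring a change of at least 1.5-fold left 10 in total KO, 4 for the difference and 6 between the WT groups. An adjusted p under 0.01 left 6 for the difference. In β KO Gstt1 alone was called with array weights, with Alb as a covariate and with the liver and muscle means as covariates. Ugt3a2 alone was called without the arrays above an Alb level of 12. Between the WT groups 9 were called with the liver and muscle means as covariates and 9 without the arrays above an Alb level of 9. Sult2a8 between the WT groups turned from 0.22 to -0.10 with the liver and muscle means. Leaving out 1 array at a time gave 20 to 25 in total KO (lowest without total KO replicate 2), 0 to 3 in β KO (highest without β WT replicate 5, 0 for example without β KO replicate 1), 12 to 15 for the difference and 15 to 20 between the WT groups. Outside the stricter thresholds, 13 of the 23 calls in total KO, 9 of 14 and 8 of 18 were kept under every other setting listed in the processing that measured the gene, the arrays with much Alb aside. Requiring a probe well above background on all arrays left out Gstt4, Sult1c2, Sult6b1, Ugt2b38 and Ugt3a1. There, 33 genes were measured, with 22 called in total KO and 13 for the difference. Gstt4 and Sult6b1 are among the calls counted as kept and were not tested there. Where a call was lost, the cause was not tested, and a fit of a line alone was not run for the difference.

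With the replicate number as a block the counts were 25, 0, 14 and 20. Same-numbered WT and KO arrays did not deviate together in the total line (0 of 8 pairs with a correlation over 0.1) and did in 6 of 8 pairs of the β line, so the numbers were not taken as pairs. No array in either line correlated best with its own number. Dim probes limit the size of a change, as for Gstt4.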
